A study of Arabidopsis thaliana with 38 samples.

Results

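The 10 Arabidopsis thaliana genes described here decide when a plant stops making leaves and starts making flowers. They are FT (AT1G65480) and TSF (AT4G20370), which encode the mobile flowering signal, CO (AT5G15840), which activates FT, TEM1 (AT1G25560), TEM2 (AT1G68840) and SVP (AT2G22540), which repress it, FD (AT4G35900), the partner of the FT protein at the shoot tip, and the floral integrators SOC1 (AT2G45660), AGL24 (AT4G24540) and AGL19 (AT4G22950). They were chosen by name for their roles in this pathway, with earlier results of these data known. All 10 were found among the 27416 genes counted.

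Poly(A)-selected RNA was sequenced from 4 genotypes, H3.1S28A, H3.1, H3.3S28A and H3.3, with 2 libraries of each. H3.1 is the form of histone H3 laid down as DNA is copied, H3.3 is the form laid down outside replication, and S28A is an exchange of the serine at position 28 for alanine. The study asked how this exchange, next to the lysine that carries the Polycomb mark H3K27me3, affects genes silenced by that mark. H3.1S28A was compared with H3.1, and H3.3S28A with H3.3. The labels do not give the line in which each histone form was expressed, the promoter behind it, what endogenous histone H3 those plants kept, or the number of transgenic lines. The source is labelled as seedlings 2 weeks old, while the extraction text names closed buds. The growth text lists long days of 16 h of light and short days of 8 h of light without saying which applied, and the hour of harvest is not given. The labels do not say whether the 2 libraries of a genotype came from separate batches of plants, so p-values measure only the spread between these samples.

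FT protein is made in the companion cells of leaf veins, which feed the phloem, and travels to the shoot tip. There it acts with the bZIP factor FD and switches on SOC1 and, with it, genes of floral identity such as AP1. In leaves, day length is read by the circadian clock and light receptors, which set the level and stability of CO, and TEM1, TEM2, SVP and FLC hold FT down. FT, FLC and AGL19 are classic targets of Polycomb silencing in seedlings.

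Library totals ran from 12865999 to 24449528 counts. Levels are CPM, counts scaled to library size, on a common TMM scale (trimmed mean of M values) over the 8 libraries. Where a library had 0 counts, the level may still have been as high as 0.127 to 0.236 CPM depending on the library, taken as 3 counts and covering counting error only. Folds are on the log2 scale, S28A form over unmutated form, from the quasi-likelihood test in edgeR, and p-values are adjusted over all tested genes by Benjamini-Hochberg, with calls made under 0.05. The 4 leaf mesophyll markers summed to between 34051 and 40398 CPM in every library. The anther and tapetum markers NZZ, A9, AMS and DYT1 together had at most 15 counts in any library, and 1 to 3 of the 4 were at 0 in each. The 2 libraries of each genotype differed by more than counting error (chi-square over its degrees of freedom, 4.11 to 18.6). They were therefore not copies of the same counts, but this cannot show whether they came from separate plants. H3.3S28A replicate 2 had the lowest total and 0.858% chloroplast counts, beside 0.0520% to 0.143% in the other libraries. Whether the libraries of 2 genotypes overlapped is given gene by gene, and the share of all genes without overlap was not counted. Lack of overlap is therefore a description of those libraries and no support for a call. In bulk RNA, fewer cells of a type and less RNA per cell cannot be told apart.

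FT, the flowering signal itself, was the member that rose in both S28A genotypes. FT had 2.60 and 1.10 CPM in H3.1S28A (37 and 26 counts), against 0.318 and 0.489 CPM in H3.1 (7 and 11 counts). Both H3.1S28A libraries lay above both H3.1 libraries, and the H3.1S28A libraries differed between themselves by more than the H3.1 libraries did. The fold was 2.12 ± 0.54 (SE) on the log2 scale, or 4.35-fold, with an adjusted p of 0.0203. FT passed the minimum of 10 counts in both H3.1S28A libraries and in 1 H3.1 library. The call was lost when either H3.1 library was left out, at 1.86 (adjusted p = 0.139) without replicate 1 and 2.47 (adjusted p = 0.0861) without replicate 2. It was also lost without H3.1S28A replicate 1, at 1.43 (adjusted p = 0.149), and held without H3.1S28A replicate 2, at 2.67. The direction was the same in all 4.

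FT had 6.05 and 6.37 CPM in H3.3S28A (117 and 81 counts), against 1.26 and 1.09 CPM in H3.3 (25 and 21 counts). The genotypes did not overlap, and the replicates of each lay close together. FT was 2.42 ± 0.29 (SE) higher on the log2 scale, or 5.36-fold, with an adjusted p of 3.5e-05, and it stayed past the threshold with any 1 library left out. Ranked by fold from the top, FT stood 34th of 18974 tested genes in the H3.1 pair and 506th of 19729 in the H3.3 pair. The effect of S28A on FT in the H3.1 pair minus that in the H3.3 pair was −0.28 ± 0.66 (SE, adjusted p = 0.773), so the pairs were not told apart, and an SE of that size leaves room for a difference in either direction.

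TSF, the closest relative of FT and a second mobile signal, was close to undetected. It had 0 counts in both H3.1S28A libraries and 0 and 1 in H3.1, and 1 and 0 in H3.3S28A against 1 and 4 in H3.3. The ratio in the H3.3 pair was 0.236 with an exact 95% counting interval of 0.005 to 2.11. TSF was below the filter in both pairs, so its response was not measurable at this depth.

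CO, the zinc finger factor that switches on FT in long days, gave no detectable difference. It had 0.985 and 0.466 CPM in H3.1S28A, against 0.773 and 0.623 CPM in H3.1, and the groups overlapped. It had 1.09 and 0.0787 CPM in H3.3S28A (21 counts and 1 count), against 1.01 and 0.466 CPM in H3.3. The replicates of H3.3S28A were further apart than the genotypes. The folds were −0.02 ± 0.53 (SE, adjusted p = 0.986) and −0.17 ± 0.81 (SE, adjusted p = 0.869). With libraries of the H3.3 pair left out in turn, the CO fold ran from −3.09 to 0.58. CO transcript follows the time of day, which the labels do not give, and the RefSeq table places AT5G15843 and AT5G15845 over the gene, so its counts are uncertain.

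**Figure D1:**
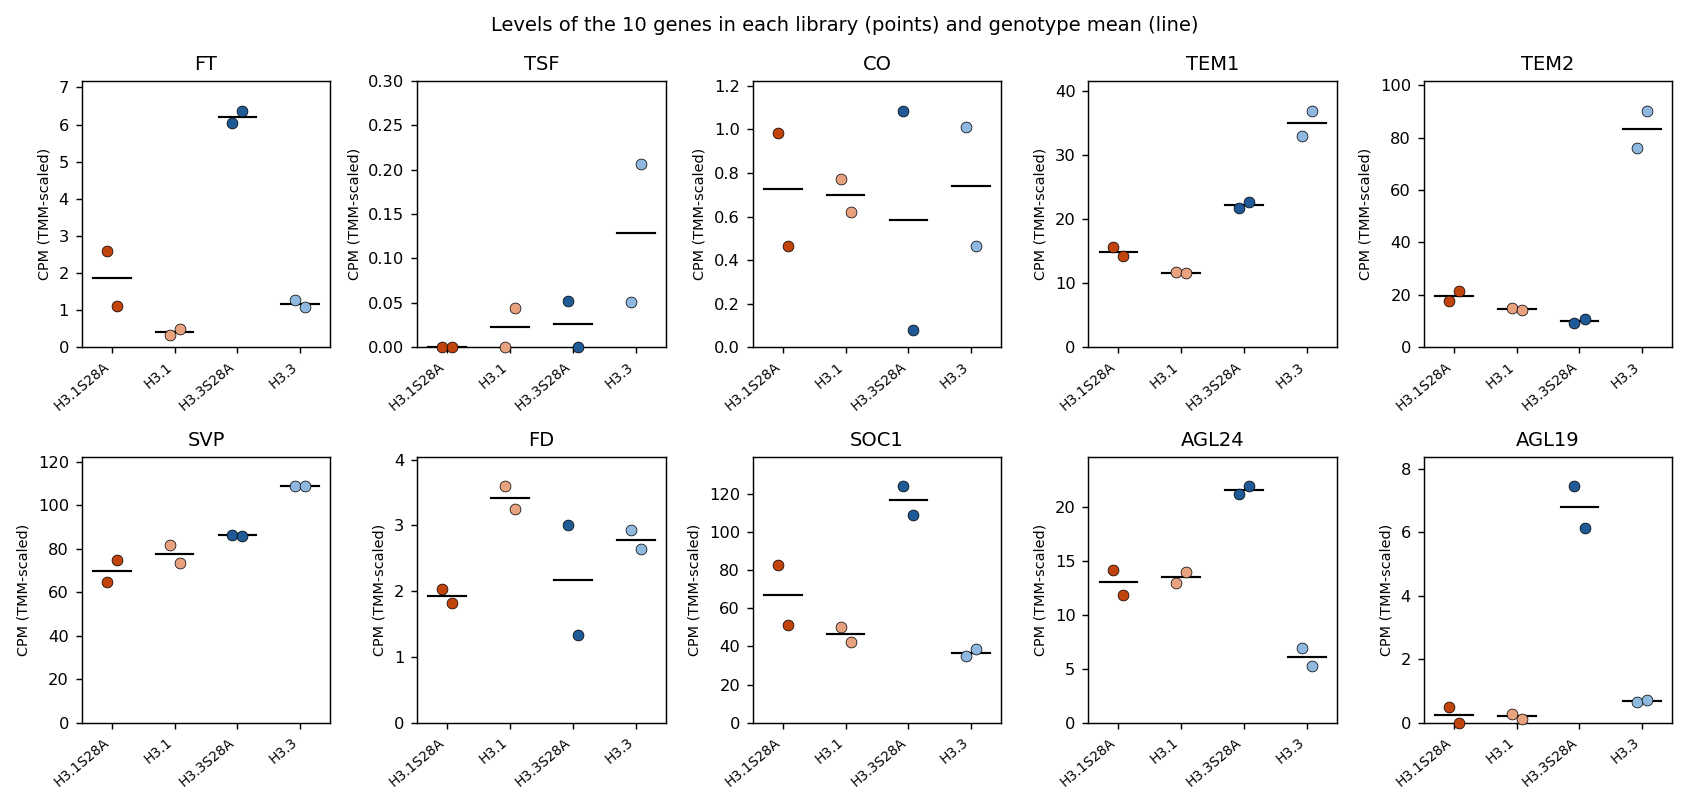
TMM-scaled CPM of each of the 10 genes (vertical axes, each with its own scale from 0) in the 2 libraries (points) of H3.1S28A, H3.1, H3.3S28A and H3.3, with the mean as a line. FT stands higher in both S28A genotypes than in the unmutated forms, TEM2 stands at 9.15 and 10.6 CPM in H3.3S28A, against 76.0 and 90.3 CPM in H3.3, and SOC1, AGL24 and AGL19 stand highest in H3.3S28A.

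The repressors TEM1 and TEM2 moved in the H3.3 pair. They are related RAV-type DNA-binding proteins that bind the start of FT and keep it low in young plants. TEM2 had 9.15 and 10.6 CPM in H3.3S28A, against 76.0 and 90.3 CPM in H3.3. No other member fell as far, at −3.05 ± 0.13 (SE) on the log2 scale, or 0.12 of the H3.3 level, with an adjusted p of 4.2e-08. TEM2 was the 32nd lowest fold of 19729 tested genes. TEM1 had 21.8 and 22.6 CPM in H3.3S28A, against 33 and 36.9 CPM in H3.3. Its fold was −0.63 ± 0.11 (SE, adjusted p = 5.9e-04). Neither gene overlapped between the genotypes, and both calls held with any 1 library left out.

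Neither TEM gene passed the threshold in the H3.1 pair. TEM1 had 15.6 and 14.2 CPM in H3.1S28A, against 11.7 and 11.6 CPM in H3.1 (0.36 ± 0.14 SE, adjusted p = 0.115). TEM2 had 17.5 and 21.3 CPM in H3.1S28A, against 14.9 and 14.1 CPM in H3.1 (0.43 ± 0.14 SE, adjusted p = 0.057). For both genes the H3.1S28A libraries were the higher ones and the genotypes did not overlap. Without H3.1S28A replicate 1 the TEM2 fold was 0.56 and passed (adjusted p = 0.0045), and without a count filter it was 0.42 and passed (adjusted p = 0.0418). The response of both genes differed between the pairs: the H3.1 effect minus the H3.3 effect was 3.51 ± 0.19 (SE, adjusted p = 2.9e-07) for TEM2 and 1.01 ± 0.16 (SE, adjusted p = 3.8e-04) for TEM1. FT was called higher in both pairs, and both TEM genes were called lower only in the H3.3 pair. The part of the TEM genes in the FT values was not tested.

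SVP, a MADS-domain repressor of FT and SOC1, was lower in H3.3S28A by a small margin. It had 86.4 and 85.9 CPM in H3.3S28A, against 109 and 109 CPM in H3.3, without overlap. Its fold was −0.30 ± 0.07 (SE, adjusted p = 0.0028), but SVP turned to 0.24 (adjusted p = 0.0135) once the relation of fold to gene span, described further on, was taken out. SVP had 64.5 and 75.0 CPM in H3.1S28A, against 81.5 and 73.2 CPM in H3.1, with overlap and no call (−0.15 ± 0.11 SE, adjusted p = 0.434). No difference between the pairs was called for SVP (0.19 ± 0.13 SE, adjusted p = 0.292).

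FD, the bZIP partner that brings the FT protein to its target genes, passed in neither pair. It had 2.04 and 1.82 CPM in H3.1S28A, against 3.59 and 3.25 CPM in H3.1, and the genotypes did not overlap. The fold of FD in the H3.1 pair was −0.83 ± 0.28 (SE, adjusted p = 0.0661). Without a count filter it was −0.84 and passed (adjusted p = 0.0477). FD had 3.0 and 1.34 CPM in H3.3S28A, against 2.93 and 2.64 CPM in H3.3 (−0.29 ± 0.39 SE, adjusted p = 0.546), and the H3.3S28A libraries lay on both sides of the H3.3 ones. The difference between the pairs was −0.52 ± 0.49 (SE, adjusted p = 0.430).

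All 3 integrators rose in H3.3S28A. SOC1, the MADS-domain factor on which the photoperiod, age and cold pathways converge, had 124 and 109 CPM in H3.3S28A, against 34.8 and 38.6 CPM in H3.3. Its fold was 1.70 ± 0.09 (SE, adjusted p = 1.9e-07), or 3.24-fold. AGL24, a relative of SVP that acts with SOC1 to promote flowering, had 21.2 and 21.9 CPM in H3.3S28A, against 6.93 and 5.23 CPM in H3.3. Its fold was 1.85 ± 0.16 (SE, adjusted p = 3.4e-06), or 3.61-fold. AGL19, a SOC1 relative that promotes flowering after cold, had 7.45 and 6.14 CPM in H3.3S28A, against 0.657 and 0.725 CPM in H3.3. Its fold of 3.32 ± 0.31 (SE, adjusted p = 6.4e-06), or 9.99-fold, was the highest among the 10 genes. In none of the 3 did the genotypes overlap, and every call held with any 1 library left out. Over all tested genes 58.4% were called in this pair, and the share without overlap was not counted.

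None of the integrators was called in the H3.1 pair. SOC1 had 82.9 and 51.2 CPM in H3.1S28A, against 50.1 and 42.5 CPM in H3.1 (0.53 ± 0.18 SE, adjusted p = 0.0660). The genotypes just failed to overlap, and replicate 1 of H3.1S28A lay well above the other 3 libraries. The SOC1 fold was 0.14 without that library and 0.84 without H3.1S28A replicate 2, where it passed (adjusted p = 2.8e-08), and it also passed without a count filter (0.52, adjusted p = 0.0128). AGL24 had 14.1 and 11.8 CPM in H3.1S28A, against 13 and 14 CPM in H3.1, with overlap (−0.06 ± 0.15 SE, adjusted p = 0.831). AGL19 had 7 and 0 counts in H3.1S28A, against 6 and 3 in H3.1, and was below the filter. Its depth-scaled ratio was 0.853 with an exact 95% counting interval of 0.27 to 2.57.

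The integrators responded differently in the 2 histone forms. The H3.1 effect minus the H3.3 effect was −1.14 ± 0.25 (SE, adjusted p = 0.0028) for SOC1 and −1.88 ± 0.22 (SE, adjusted p = 3.3e-05) for AGL24. For AGL19 the difference was −3.35 ± 1.18 (SE, adjusted p = 0.0393), a call that was lost with DESeq2 (−3.20, adjusted p = 0.135). It was also lost without any 1 of 6 libraries, every one but H3.1S28A replicate 1 and H3.3S28A replicate 2.

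**Figure D2:**
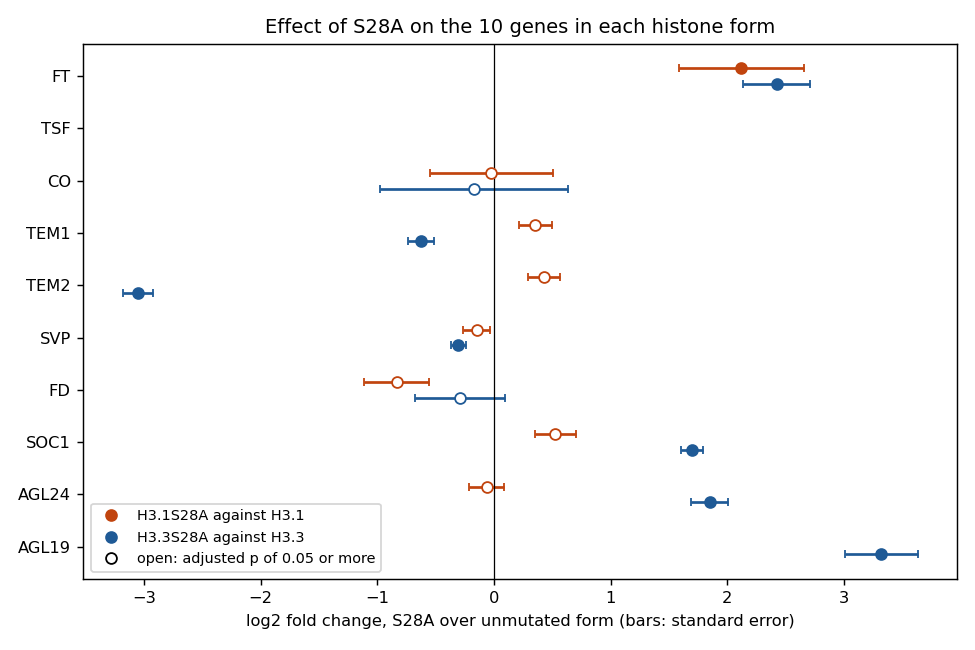
Log2 fold change (horizontal axis, S28A form over unmutated form, bars are SE) of each gene in the H3.1 pair (upper point) and the H3.3 pair (lower point), filled where the adjusted p was under 0.05. FT is the only filled point of the H3.1 pair, at 2.12, and in the H3.3 pair TEM2 lies at −3.05 and AGL19 at 3.32. TSF was tested in neither pair and AGL19 only in the H3.3 pair.

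Counted together, 1 of the 8 members tested in the H3.1 pair was called, FT, which was higher. Over all 18974 tested genes 13.5% were called in that pair, 8.23% higher and 5.26% lower, so the members' share was near the background. No member was called lower there by edgeR or by DESeq2, and 1, FD, had an unadjusted p under 0.05. Among the 9 members tested in the H3.3 pair 7 were called, 4 higher (FT, SOC1, AGL24 and AGL19) and 3 lower (TEM1, TEM2 and SVP). Of all 19729 genes 58.4% were called there, 28.8% higher and 29.7% lower, so most of that count is shared with the genome at large. The median fold was 0.17 in the H3.1 pair, beside −0.01 over all genes. For the H3.3 pair it was −0.17, beside 0.008. The difference between the pairs was called for 5 of 9 members, TEM1 and TEM2 above 0 and SOC1, AGL24 and AGL19 below 0, beside 39% of 20052 genes, 24.4% above 0 and 14.6% below. FT, CO, SVP and FD were not called in that test.

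**Figure D3:**
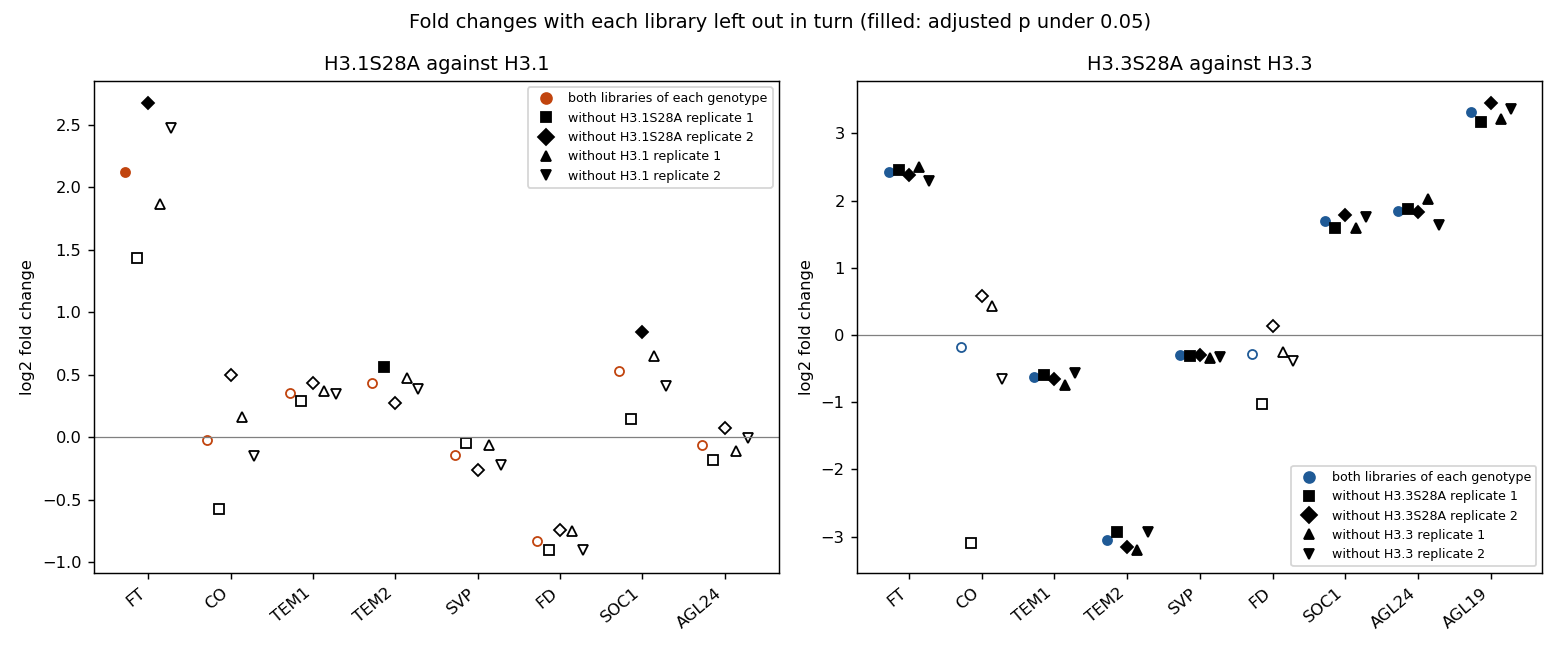
Log2 fold change (vertical axes) of the tested members with all 4 libraries (circles) and with each library left out in turn (squares, diamonds and triangles), filled where the adjusted p was under 0.05. In the H3.1 pair (left) FT ran from 1.43 to 2.67 and was called in 1 of the 4 reduced fits, while in the H3.3 pair (right) the 7 calls held in every fit and CO ran from −3.09 to 0.58.

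Around the 10 genes, 5 lists cover the rest of the pathway, also chosen with earlier results of these data known. Of 12 further repressors of FT and SOC1, 5 were lower and 0 higher in the H3.1 pair, beside 5.26% lower and 8.23% higher over all genes. The median fold of the 12 was −0.36, beside −0.01 over all genes. DESeq2 also called 0 higher, and 0 had an unadjusted p under 0.05 in that direction. TOE1, an AP2-type repressor of FT, had 67.3 and 91.7 CPM in H3.1S28A, against 143 and 119 CPM in H3.1 (−0.71, adjusted p = 0.0055), without overlap. MAF3, a relative of FLC, had the same fold (−0.71, adjusted p = 0.0307), but −0.32 without H3.1 replicate 1 (adjusted p = 0.379). The count of 5 went to 3 with DESeq2, to 2 with the span relation removed and to 2 without H3.1 replicate 1. Of the 12, 6 were higher and 2 lower in the H3.3 pair (median 0.14, beside 0.008 over all genes), where 58.4% of all genes were called, and the 6 became 3 without H3.3 replicate 2.

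FLC, the MADS-domain repressor whose silencing by cold opens the way to flowering, was one of those 6. It had 3.41 and 3.86 CPM in H3.3S28A, against 1.72 and 1.19 CPM in H3.3 (1.34, adjusted p = 0.0057). FLC, like FT and AGL19, was thus higher in H3.3S28A, though without H3.3 replicate 2 its fold was 1.08 and missed the threshold (adjusted p = 0.0575). FLC had 4.22 and 4.15 CPM in H3.1S28A, against 4.46 and 5.16 CPM in H3.1 (−0.20, adjusted p = 0.589). MAF5, another FLC relative, was higher in H3.3S28A (1.57, adjusted p = 3.0e-04). TOE3 was lower (−0.56, adjusted p = 0.0048), and missed the threshold without H3.3 replicate 1 (−0.52, adjusted p = 0.0528). MAF2 was lower (−0.52, adjusted p = 0.0042), but −0.01 with the span relation removed (adjusted p = 0.971). MAF2 to MAF5 stand in a row of similar copies, so how their reads were shared is uncertain.

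Of 30 genes that act upstream of FT in day length sensing, 3 were higher and 4 lower in the H3.1 pair (median 0.07), beside 8.23% higher and 5.26% lower over all genes. In the H3.3 pair 6 were higher and 16 lower (median −0.68), beside 28.8% and 29.7% over all genes. Removing the span relation took the lower call from COP1, SPA1, SPA4 and PFT1 and gave it to NF-YB3 and CIB1. The higher call was taken from NF-YB2 and NF-YC4 and given to GI, ZTL, LKP2 and SPA1. FKF1, the blue light receptor that removes the CDF repressors of CO, had 33.8 and 30.1 CPM in H3.3S28A, against 2.02 and 5.07 CPM in H3.3 (3.20, adjusted p = 3.3e-06). FKF1 went the other way in the H3.1 pair, with 8.59 and 11.4 CPM in H3.1S28A, against 26.5 and 15.8 CPM in H3.1 (−1.07, adjusted p = 0.0061). Without H3.1 replicate 1 that fold was −0.65 (adjusted p = 0.0768).

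COL2, a close relative of CO, had 4.24 and 3.94 CPM in H3.3S28A, against 37.3 and 32.0 CPM in H3.3 (−3.05, adjusted p = 9.2e-08). COL2 had 27.8 and 21.0 CPM in H3.1S28A, against 14.1 and 16.7 CPM in H3.1 (0.65, adjusted p = 0.0129; 0.54 and adjusted p = 0.105 without H3.1 replicate 1). PHYA, the far-red light receptor, was lower in H3.3S28A (−1.81, adjusted p = 1.0e-07), and its fold was −0.95 with the span relation removed. CDF5, a DOF-type repressor of CO, was higher in both S28A genotypes, at 0.73 in the H3.1 pair (adjusted p = 0.0208) and 0.65 in the H3.3 pair (adjusted p = 0.0144). Those CDF5 calls were lost without either H3.1 library (0.74 and 0.71), without H3.1S28A replicate 1 (0.62), without H3.3 replicate 1 (0.53) and without H3.3S28A replicate 1 (0.50). PFT1, the Mediator subunit MED25, was lower in H3.1S28A (−0.60, adjusted p = 0.0049), but not without H3.1 replicate 2 (−0.50, adjusted p = 0.0656). Without either H3.1 library the 4 lower calls of the H3.1 pair fell to 1, and the 3 higher calls to 0 without replicate 1 and 1 without replicate 2.

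Of 7 relatives and partners of FT, 3 were tested in the H3.1 pair and 0 were called by edgeR or by DESeq2, with 0 at an unadjusted p under 0.05 (median 0.04). For the H3.3 pair 5 were tested, TFL1 and BFT through H3.3S28A alone. Of the other 3, 0 were higher and 1 lower (median −0.01), beside 28.8% higher and 29.7% lower over all genes. FTIP1, which passes FT from companion cells into the sieve tubes, had 4.19 and 2.99 CPM in H3.3S28A, against 9.05 and 9.94 CPM in H3.3 (−1.35, adjusted p = 3.8e-04). In the H3.1 pair FTIP1 was not called (0.04, adjusted p = 0.90). BFT, an FT relative that delays flowering, had 0.828 and 1.02 CPM in H3.3S28A, against 0.202 and 0.207 CPM in H3.3. BFT rested on 29 counts in H3.3S28A and 8 in H3.3. Since the filter fixed its direction, only its levels are given.

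Of 14 genes listed as downstream targets and SOC1 relatives, 7 were tested in the H3.1 pair. Of these 7, 3 (SEP3, SPL3 and SPL4) were higher and 0 lower (median 0.81), beside 8.23% higher and 5.26% lower over all genes. The 3 became 6 without H3.1S28A replicate 2, and SPL4 missed the threshold without H3.1 replicate 1 (0.75, adjusted p = 0.0652). In the H3.3 pair 10 were tested, of which 4 (AP1, SEP3, AGL42 and AGL71) passed the count filter through H3.3S28A alone and could be called in no direction but up. Of the other 6, 3 (FUL, SPL4 and SPL9) were higher and 0 lower (median 0.36), beside 28.8% higher and 29.7% lower over all genes. DESeq2 called 0 lower in both, and an unadjusted p under 0.05 in that direction was found for 1 gene in the H3.1 pair and 0 in the H3.3 pair. SEP3, the floral organ cofactor, had 131 and 123 CPM in H3.3S28A, against 0.303 and 0.104 CPM in H3.3 (2534 and 1568 counts against 6 and 2). SEP3 had 43.1 and 5.13 CPM in H3.1S28A, against 0.910 and 0.890 CPM in H3.1 (4.69, adjusted p = 0.0020), and 2.50 without H3.1S28A replicate 1.

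SPL3, a promoter of flowering held down in young plants by miR156, had 11.3 and 8.09 CPM in H3.1S28A, against 5.14 and 3.91 CPM in H3.1 (1.08, adjusted p = 0.0057; 0.89 and adjusted p = 0.0598 without H3.1 replicate 2). AGL71, a SOC1 relative, had 36 counts over the 2 H3.3S28A libraries and 0 over the 2 H3.3 libraries. AP1 and FUL, picked out after their values were seen, are floral identity genes directly after FT. AP1 had 4.03 and 3.07 CPM in H3.3S28A, against 0.0505 and 0 CPM in H3.3. FUL had 16.4 and 11.1 CPM in H3.3S28A, against 2.07 and 1.92 CPM in H3.3 (2.82, adjusted p = 3.6e-06). FUL had 5.14 and 1.95 CPM in H3.1S28A, against 2.14 and 3.07 CPM in H3.1, with overlap (0.38, adjusted p = 0.56).

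**Figure D4:**
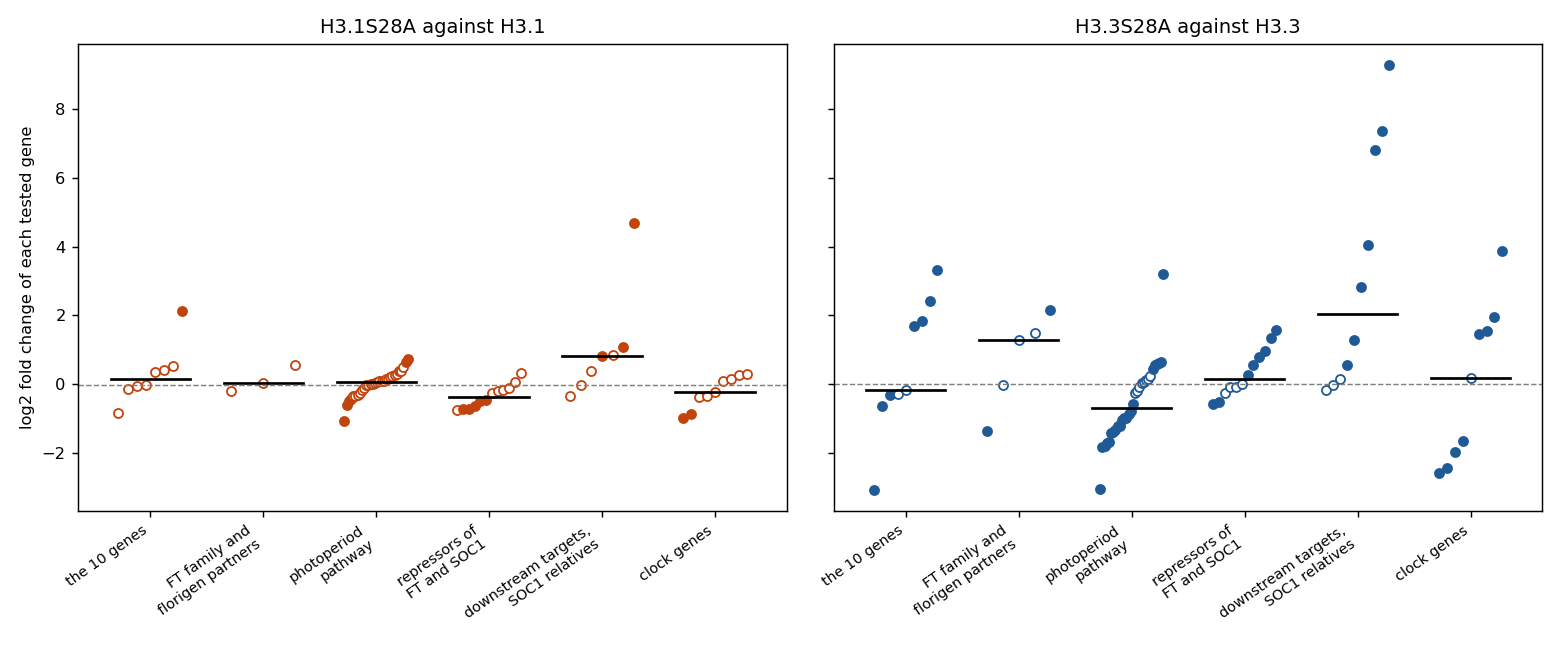
Log2 fold change (vertical axis) of every tested gene of the 10 members and the 5 surrounding lists in the H3.1 pair (left) and the H3.3 pair (right), filled where the adjusted p was under 0.05, with the list median as a black line and that of all tested genes dashed. The photoperiod list has 16 lower and 6 higher calls in the H3.3 pair. The highest points there among the downstream targets and SOC1 relatives (SEP3, AGL71, AP1 and AGL42) passed the count filter through H3.3S28A alone. The fitted fold of AGL71 depends on the count added to 0 in H3.3.

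Of 9 clock genes, 4 were higher and 4 lower in the H3.3 pair (median 0.18), where 58.4% of all genes were called. In the H3.1 pair 0 were higher and 2 lower (median −0.21), beside 13.5% called over all genes, and the 0 became 2 without H3.1S28A replicate 2. DESeq2 also called 0 higher in the H3.1 pair, where 1 had an unadjusted p under 0.05. The morning genes CCA1 and LHY were lower in H3.3S28A: CCA1 had 6.15 and 11.5 CPM in H3.3S28A, against 53.8 and 51.0 CPM in H3.3 (−2.58, adjusted p = 2.1e-06), and the LHY fold was −2.42 (adjusted p = 2.3e-07). The evening genes ELF4 (3.87, adjusted p = 5.5e-08) and LUX (1.97, adjusted p = 3.3e-07) were higher. TOC1 had 24.4 and 27.5 CPM in H3.1S28A, against 51.5 and 43.4 CPM in H3.1 (−0.86, adjusted p = 6.1e-04), and the PRR5 fold was −0.99 (adjusted p = 3.8e-04). FT, CO, FKF1 and both TEM genes are known to change over the day. The part of harvest time in their values was not tested.

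Flower organ markers were measured beside these genes. Of the 6 markers 5 were tested in the H3.3 pair, all through H3.3S28A alone, so the filter fixed their direction and only their levels are given. In the H3.1 pair 2 were tested, PI through H3.1S28A alone, and 1, the stamen and carpel gene AG, was higher in H3.1S28A (1.79, adjusted p = 0.017). That AG call was lost without either H3.1 library (1.64 and 1.98) and without H3.1S28A replicate 1 (0.97). The summed level of the 6 was 53.3 and 51.6 CPM in H3.3S28A, against 0.556 and 0.828 CPM in H3.3, where 2 of the 6 were at 0 in each library. The sum was 10.0 and 3.35 CPM in H3.1S28A, against 1.5 and 1.96 CPM in H3.1. AP3, a petal and stamen gene, had 339 counts over the 2 H3.3S28A libraries and 0 over the 2 H3.3 libraries. H3.1S28A replicate 1 was the higher library of its genotype for FT, SOC1, SEP3 and this sum. The part of floral tissue in the levels of the members was not tested.

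The companion cell markers SUC2 and AHA3, from the cells that make FT, summed to 167 and 156 CPM in H3.3S28A, against 384 and 380 CPM in H3.3. Both were lower, SUC2 at −0.48 (adjusted p = 3.1e-04) and AHA3 at −1.67 (adjusted p = 2.9e-08). AHA3 spans 5809 bp, and genes over 5000 bp had a median fold of −1.10 in this pair. SUC2 and AHA3 summed to 502 and 460 CPM in H3.1S28A, against 328 and 412 CPM in H3.1. There AHA3 was higher (0.40, adjusted p = 0.0336; 0.27 without H3.1 replicate 1 and 0.33 without H3.1S28A replicate 1, neither called), and SUC2 was not called (0.34, adjusted p = 0.107). Their part in the FT values was not tested.

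Of the 4 shoot meristem markers, WUS and CLV3 had at most 10 counts in any library and were not tested. STM and KNAT1 were both lower in the H3.1 pair, while in the H3.3 pair STM was higher and KNAT1 lower. KNAT1, a homeobox gene of the meristem and stem, had 1.06 and 0.551 CPM in H3.1S28A, against 4.09 and 4.27 CPM in H3.1 (−2.45, adjusted p = 6.9e-04). STM, which maintains the meristem, had 8.53 and 10.2 CPM in H3.3S28A, against 3.03 and 4.14 CPM in H3.3 (1.40, adjusted p = 3.4e-04). The lower call of STM in the H3.1 pair (−1.54) was lost with DESeq2 and with the span relation removed. It was also lost without H3.1 replicate 2 (−1.22) and without H3.1S28A replicate 2 (−0.78). The lower call of KNAT1 in the H3.3 pair (−0.63) was lost with any 1 library left out, at −0.77 to −0.53. DESeq2, RLE size factors, the replicate block, removal of the span relation and the fit of all 8 libraries lost it too. Summed over the 4 genes, the level was 12.4 and 13.7 CPM in H3.3S28A, against 7.78 and 9.83 CPM in H3.3. The sum was 3.1 and 1.14 CPM in H3.1S28A, against 6.96 and 8.45 CPM in H3.1. FD and its targets act in this tissue, and its part in their values was not tested. Of the 4 leaf markers, 3 were higher in the H3.1 pair and 1 in the H3.3 pair, beside 8.23% and 28.8% over all genes. In both pairs 0 were lower by edgeR and DESeq2, with 1 at an unadjusted p under 0.05, in the H3.3 pair. These counts were unstable: the 3 became 1 with the span relation removed or without either H3.1S28A library, and the 1, LHCB6, became 0 in 6 of the alternatives. With the span relation removed 4 of the 4 were lower in the H3.3 pair, and 1 or 2 were lower in 5 other alternatives.

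**Figure D5:**
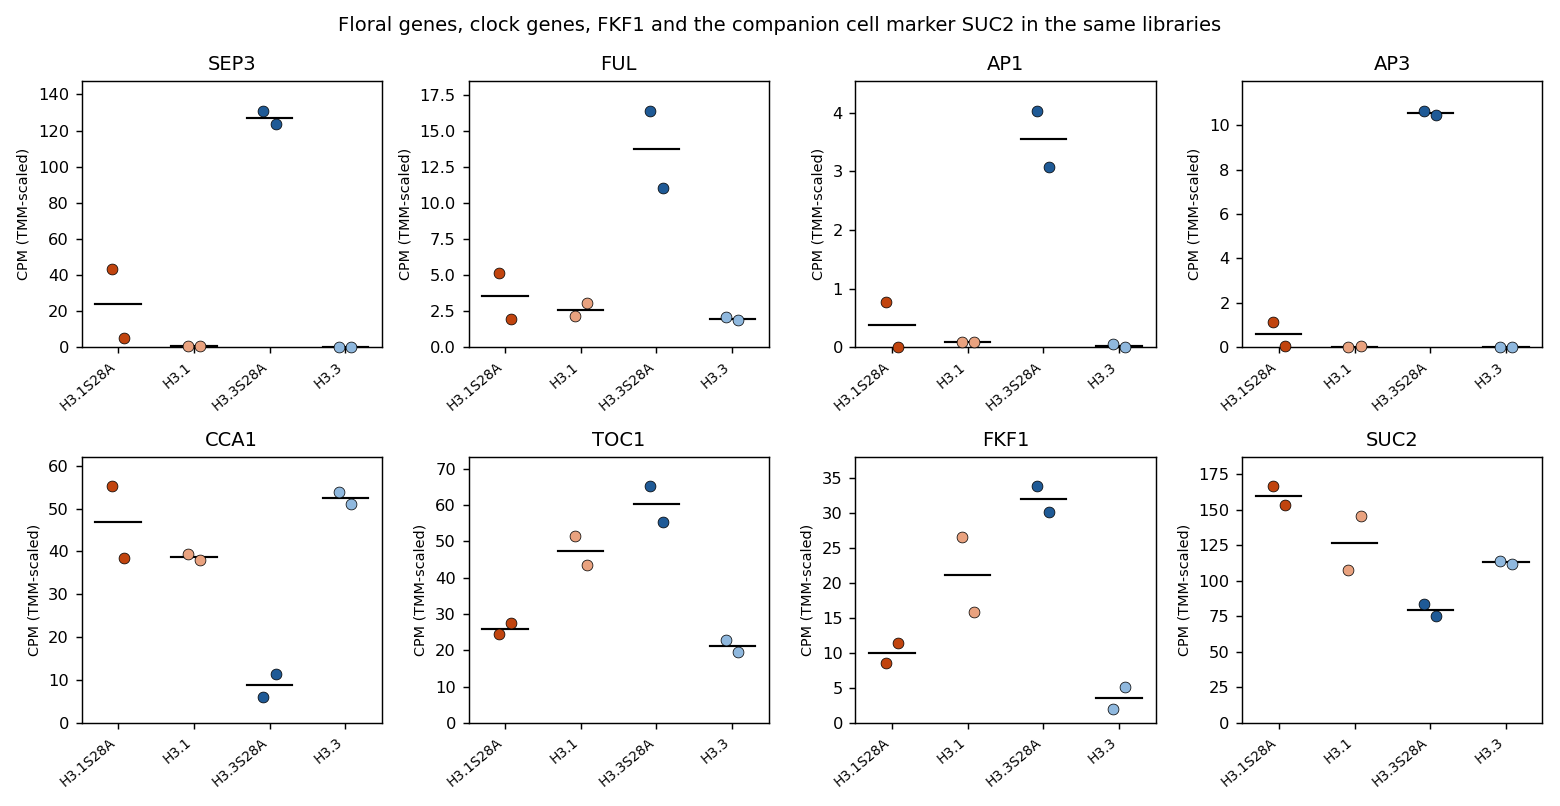
TMM-scaled CPM (vertical axes, each from 0) of 4 floral genes, the clock genes CCA1 and TOC1, the light receptor FKF1 and the companion cell marker SUC2 in the 2 libraries (points, with the mean as a line) of each genotype. SEP3, FUL, AP1 and AP3 stand highest in H3.3S28A, where CCA1 is at 6.15 and 11.5 CPM and SUC2 at 83.6 and 74.8 CPM.

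Folds also ran with gene span, the distance on the genome between a gene's ends. Across genes, which are not independent replicates, Spearman's rho of fold and span was −0.524 in the H3.3 pair and −0.218 in the H3.1 pair. Between replicates of 1 genotype it lay between −0.193 and 0.177. In the H3.3 pair the median fold was 0.561 for 3504 genes under 1500 bp and −1.10 for 1545 genes over 5000 bp. The 10 members span 1759 bp (TEM1) to 4255 bp (SVP), with FT at 2627 bp and SOC1 at 3621 bp. With this relation removed, FT had 2.45, SOC1 2.05, AGL24 2.08, AGL19 3.84, TEM1 −0.96 and TEM2 −3.25 in the H3.3 pair, all past the threshold. SVP was the member that changed sign.

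As a description, the genes whose levels over the 8 libraries were most like those of FT were MMZ3 (r = 0.994), GRXC2 (r = 0.991) and UGE1 (r = 0.990), by Pearson's r of log2 CPM. MMZ3, for example, had 64.9 and 54.7 CPM in H3.1S28A, against 41.8 and 42.5 CPM in H3.1. Its levels were 87.3 and 87.4 CPM in H3.3S28A, against 53.9 and 53.7 CPM in H3.3. For SOC1 they were CYP89A9 (r = 0.991), AT5G63580, listed as flavonol synthase FLS2 (r = 0.985), and ESL1 (r = 0.984). CYP89A9 had 33.1 and 14.2 CPM in H3.1S28A, against 12.9 and 12.9 CPM in H3.1. It had 58.3 and 58.1 CPM in H3.3S28A, against 9.50 and 9.89 CPM in H3.3. The libraries come from separate tables and share their genotype, and these genes were picked from all that were tested, so the values describe these 8 libraries only.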

How the data were processed

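The authors deposited raw counts per gene in 2 tables, one for the H3.1 pair and one for the H3.3 pair, of 27416 genes each. The tools used were HISAT2, Subread and DESeq2, and the build was TAIR10, per the submitters' processing notes. The sources used here give no versions, strand setting or treatment of multiply mapped reads. The names of the 2 H3.1 columns were taken to mean replicates 1 and 2 of that genotype, and the word new in both H3.1S28A column names is not explained. The 30 chromatin immunoprecipitation libraries are not analysed here.

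Each pair was fitted separately (R 4.3.3, edgeR 4.0.16: filterByExpr by group with a minimum count of 10, TMM scaling, glmQLFit and glmQLFTest). Calls had a Benjamini-Hochberg adjusted p under 0.05. A contrast on all 8 libraries gave the difference between the pairs, in which a shift in level between the tables cancels. Standard errors are the absolute log2 fold over the square root of F. CPM were TMM-scaled over all 8 libraries, so levels set across the tables carry no test. Names, spans and overlaps came from a RefSeq table of TAIR10.1 holding 97.5% of the genes, where TEM2 is listed as RAV2 and SOC1 as AGL20. CDF5 and A9 were matched by identifier. Intervals and floors cover counting error only.

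The 10 members and the lists were chosen with earlier results of these data known. Beside the members, the text names up to 2 genes called in each direction per list and pair, by size of fold, the tissue markers, and the 3 genes most like FT and SOC1. Alternatives were DESeq2 1.42.0, RLE size factors, no count filter, a replicate block, no organelle genes, removal of the span relation by a loess offset per library, 1 fit of all 8 libraries, and each library left out. Where that left 1 library in a genotype, it was assumed to vary like the other genotype. On simulated counts of the H3.1 pair, 94% of 50 genes raised by 1 log2 unit were called, and 50% of those raised by 0.585. In the H3.3 pair 86% and 56% were. The raised genes were drawn from those with a mean of 50 counts or more. These shares therefore do not cover members with fewer counts, such as TSF, CO, and FT and AGL19 in the H3.1 pair.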

Additional observations from a re-analysis of the deposited data

Results flagged for a closer look

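The results below drew attention because the effect of S28A differed between the 2 histone forms, by the test of the difference itself. Each value is the log2 effect in the H3.1 pair minus that in the H3.3 pair, with edgeR's adjusted p under 0.05. Over all 20052 tested genes, 39% met this. Of the member genes, TEM1 (1.01), TEM2 (3.51), SOC1 (−1.14), AGL24 (−1.88) and AGL19 (−3.35) did, and so did 15 named genes of the surrounding lists. Those 15 had been named for the largest called folds in a pair, so their number cannot be set against the 39%. Upstream of FT these were FKF1 (−4.24), COL2 (3.73) and PHYA (1.86), and among the partners of FT the transporter gene FTIP1 (1.42). Among the repressors they were FLC (−1.51), MAF5 (−1.66) and TOE1 (−0.62). Among the downstream targets and SOC1 relatives they were SPL3 (0.96) and AGL71 (−7.18). The AGL71 value depends on the count added to 0, since the gene had 0 counts in H3.3 and at most 3 in any library of the H3.1 pair. AGL71 also passed the count filter through H3.3S28A alone, which fixed the direction of this value, so its call is no support for a difference. Among the clock genes they were CCA1 (2.88), LHY (2.07), PRR5 (−2.42), TOC1 (−2.38), ELF4 (−3.69) and LUX (−1.82). FKF1, PRR5 and TOC1 were called in both pairs with opposite signs, lower in H3.1S28A and higher in H3.3S28A, and COL2 was higher in H3.1S28A and lower in H3.3S28A. Several of these differences were lost when single libraries were left out: TOE1 for 5 of the 8 libraries, AGL19 for 6, AGL71 for 7 (and with the replicate block), SPL3 for 4 and MAF5 for 1, H3.3 replicate 2 (−1.43, adjusted p = 0.0503). With DESeq2, AGL19 (adjusted p = 0.135) and SPL3 (adjusted p = 0.0506) were lost.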

How the results depend on the processing

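In the H3.3 pair the 4 higher and 3 lower member calls held with DESeq2, RLE factors, no count filter, the replicate block, no organelle genes, the 8-library fit and each library left out. With the span relation removed they were 5 and 2, SVP turning to 0.24. Other genes that changed sign there were GI (0.74), COP1 (0.013), SPA1 (0.23), NF-YB2 (−0.036), NF-YB3 (−0.59), RBCS1A (−0.32) and LHCB6 (−0.30). The H3.1 pair was less stable: the 1 higher member became 3, with 1 lower, without a count filter, 2 with the replicate block (SOC1 added at 0.50) and 0 to 2 with libraries left out. Same-numbered libraries did not deviate together (r = −0.003 in the H3.1 pair, 0.022 in the H3.3 pair). No pairing by number was seen in the counts, which cannot show whether such samples were grown or harvested together. Over all genes the 1562 higher calls of the H3.1 pair ran from 777 to 1966 and the 998 lower calls from 375 to 1514 with libraries left out, and the lower calls were 603 with DESeq2. The cause of these changes was not tested. For the members' difference between the pairs, 66 of 72 values with libraries left out kept their call, and the 6 that did not were all AGL19. Depth limits TSF, CO, FT in H3.1 and AGL19 in the H3.1 pair, which rest on few counts.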
